A study of Homo sapiens with 48 samples.

Results

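The response of IRS-2 clone #6 to 24 h of IGF-I was taken from 6 of the 48 arrays of the series, the 3 labelled with IGF-I and the 3 labelled SFM for this clone and time, and it was described over all 54613 probe sets that are not Affymetrix controls. The clone is a subline of T47D-YA, a luminal breast cancer cell line without IRS adaptor proteins, that was made to express IRS-2. According to the methods, the cells were first starved without serum (SFM, serum-free medium) for 24 h, then received IGF-I, or SFM+FN alone as the control, and RNA was collected 4 h or 24 h later. The groups set beside it were IRS-2 #6 with IGF-I and SFM at 4 h, and IRS-2 #1, IRS-1 #10 and IRS-1 #20 with IGF-I and SFM at 24 h, again with 3 arrays per group. Each name stands for 1 clone, so a value of IRS-2 #6 is a value of that clone and not of IRS-2 cells in general.

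IGF-I binds the type I IGF receptor, a tyrosine kinase that phosphorylates IRS-1 and IRS-2, which in turn recruit PI3 kinase and adaptors of the Ras/ERK pathway. Akt, activated through PI3 kinase, keeps FOXO transcription factors out of the nucleus, so genes that FOXO proteins drive in starved cells are known to be expressed less when the pathway is active. ERK activity induces short-lived early genes and their feedback inhibitors within hours, while genes of S phase and mitosis are expressed later, in cycling cells.

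The values are log2 expression summaries, 1 per probe set and array, between 3.13 and 15.36 over the series. Array medians were 7.40 to 7.46 for these 6 arrays, the arrays of a group correlated at 0.996 or more, and no columns were identical. The 3-prime minus 5-prime difference of the ACTB and GAPDH control probe sets, a sign of RNA quality, was different by -0.011 and -0.015 between IGF-I and SFM arrays (IGF-I minus SFM, exact permutation test, two-sided, p = 0.6 and p = 0.3, with 0.1 the smallest p that 3 arrays against 3 allow). All 10 markers of luminal epithelium ranked at percentile 89.2 of all probe sets or above. The medians of the fibroblast, endothelial, leukocyte and basal marker lists ranked between percentiles 27.9 and 66.1. Single members of those 4 lists ranked higher, with COL1A1 at 85.8, ACTA2 at 85.2 and PECAM1 at 78.3. None of the 18 measured genes of those 4 lists changed, and only 3 of the 5 basal markers were measured. The IRS2 probe sets read 7.05 to 7.24 and 6.83 to 7.04 in IGF-I arrays, against 6.95 to 7.02 and 6.74 to 6.88 in SFM arrays, without a change past the test, and whether they lie in the introduced sequence is not known from the files.

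After 24 h of IGF-I, IRS-2 #6 cells had lower levels of a small group of transcripts and higher levels of very few. The chemokine gene CCL20, the secreted glycoprotein gene CHI3L1, the complement gene CFB, the progesterone receptor gene PGR, the ubiquitin ligase adaptor gene KLHL24, the heparan sulfate sulfatase gene SULF1 and the histone gene H2AC6 fell 1.67- to 2.01-fold. SIPA1L2, SCLT1 and ETV5 rose 1.52- to 1.6-fold. In limma, 39 probe sets were called lower (0.0714% of the 54613 tested) and 4 called higher (0.00732%), where a call needs a change of 1.5-fold or more together with a p below 0.05 after Benjamini-Hochberg adjustment. The words rose and fell are used here for whatever passed the adjusted p. Just under the fold threshold, at 1.4- to 1.5-fold, lay another 53 falls and 10 rises, the nearest of them at -0.579 and 0.577 on the log2 scale, and the last calls stood at -0.589 and 0.601. The labels do not say that the 3 arrays of a group come from separate cultures, so the p-values measure a spread between arrays that may be technical. That spread was pooled within the 16 groups of the whole series and is not that of these arrays alone. A probe set with scattered values here can thus have a small standard error (SE), as SLC2A13 with an SD of 0.435 in IGF-I arrays and an SE of 0.116.

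**Figure D1:**
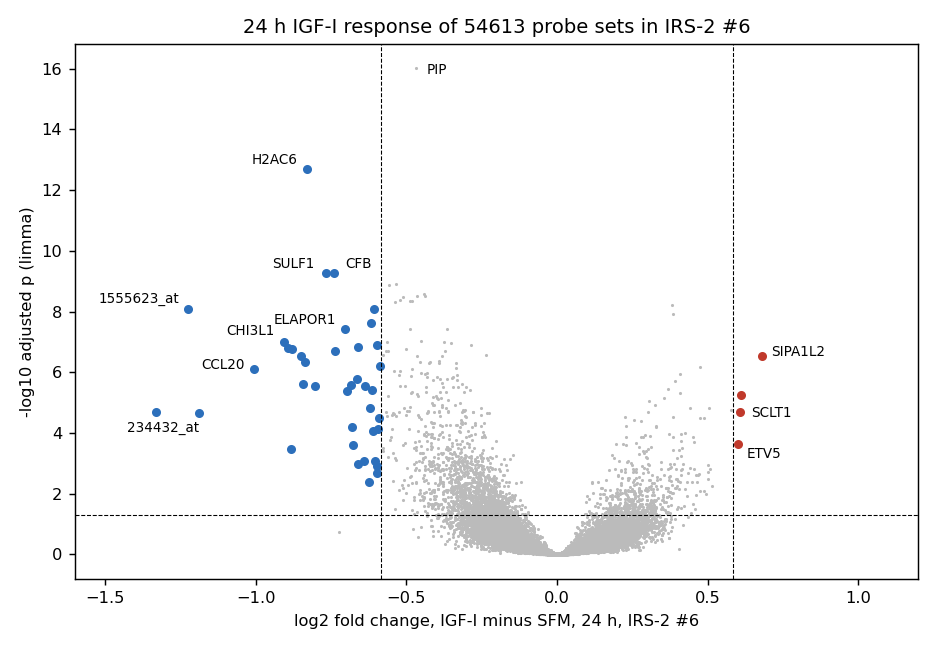
Each of the 54613 probe sets is a point, with the log2 fold change of IGF-I over SFM at 24 h in IRS-2 #6 on the x axis and -log10 of the limma adjusted p on the y axis. Blue points are the 39 called lower, red points the 4 called higher, and dashed lines mark the adjusted p of 0.05 and 1.5-fold, which PIP, the probe set of smallest adjusted p, does not reach.

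The 39 falls comprised 29 probe sets of 22 genes, 1 probe set assigned to several H3 histone genes and 9 probe sets with no gene symbol. In 38 of the 39, and in all 4 rises, the 3 IGF-I arrays lay apart from the 3 SFM arrays. Over all probe sets, the IGF-I arrays lay below the SFM arrays in 12.5% and above them in 9.06%. The calls were drawn from these same arrays, so their separation largely follows from the call and is only a description. Of the falls, 27 had their highest IGF-I value in array C, 26 their lowest in array A, and 25 their highest SFM value in array B. The number of calls was 62 without the IGF-I array C (2 higher and 60 lower) and 37 without the IGF-I array A (9 higher and 28 lower), and 20 of the 43 probe sets lost their call without at least 1 of the 6 arrays. With no fold threshold, 1568 probe sets were lower and 530 higher.

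The promoters of 3 of the genes that fell are shown because they carry the CCAAT box, the most frequent of the motifs searched, and in KLHL24 also the AP-1 site. They are the 250 bases upstream of the RefSeq start (GRCh38.p14, all on the plus strand, 5′ to 3′), with matches in capitals (CCAAT or its complement ATTGG, and the AP-1 site TGACTCA or its complement TGAGTCA).
H2AC6 (chr6:26123922-26124171): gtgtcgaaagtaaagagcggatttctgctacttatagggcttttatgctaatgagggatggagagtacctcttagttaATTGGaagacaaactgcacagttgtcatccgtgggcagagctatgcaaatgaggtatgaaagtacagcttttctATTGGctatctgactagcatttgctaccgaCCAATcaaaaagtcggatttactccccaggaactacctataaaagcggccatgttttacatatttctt
KLHL24 (chr3:183635373-183635622): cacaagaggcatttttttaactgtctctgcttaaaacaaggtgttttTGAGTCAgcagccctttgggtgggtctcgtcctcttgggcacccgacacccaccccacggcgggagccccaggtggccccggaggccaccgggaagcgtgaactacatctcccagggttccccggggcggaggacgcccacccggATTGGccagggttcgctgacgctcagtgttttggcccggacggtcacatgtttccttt
CCL20 (chr2:227813592-227813841): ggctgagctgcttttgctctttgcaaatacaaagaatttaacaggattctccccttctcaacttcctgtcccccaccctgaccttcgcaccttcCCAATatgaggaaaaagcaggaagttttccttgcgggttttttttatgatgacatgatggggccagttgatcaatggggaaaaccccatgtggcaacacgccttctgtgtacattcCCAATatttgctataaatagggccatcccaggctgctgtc
H2AC6 holds CCAAT at -98 and -172 on the opposite strand and at -68 on the same strand, KLHL24 holds TGACTCA at -203 and CCAAT at -58, both on the opposite strand, and CCL20 holds CCAAT at -156 and -40 on the same strand, counted from the start site to the leftmost base. Promoter windows from 250 bases before to 50 after the start were listed for 19 of the 22 genes that fell, and each motif was searched on both strands. CCAAT was present in 10 of the 19 (35.7% of all 27305 promoters), TGACTCA in KLHL24 alone (4.92%) and the E-box CACGTG in PGR and SLC2A13 (7.43%). The forkhead motif GTAAACA (3.41%) and the ATF4-C/EBP motif TGATGCAA (0.923%) were in none of the 19, which says only that these letters are not in these windows.

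CCL20, the ligand of the receptor CCR6 and a chemoattractant of lymphocytes and dendritic cells (chr2:227813842-227817556 in GRCh38.p14), showed the largest fall of any gene with a symbol. It read 7.15, 7.40 and 7.56 in IGF-I arrays A, B and C, against 8.43, 8.45 and 8.25 in SFM arrays. Every IGF-I array was thus below every SFM array, and the log2 fold change was -1.01 (SE 0.13, 95% interval -1.27 to -0.74, adjusted p = 7.54e-07). CFB, which encodes complement factor B of the alternative pathway, read 9.15, 9.14 and 9.35 in IGF-I arrays and 9.90, 10.02 and 9.93 in SFM arrays (-0.74, SE 0.069, adjusted p = 5.45e-10). CHI3L1, also known as YKL-40, read 4.62, 4.27 and 4.21 in IGF-I arrays and 5.54, 5.22 and 5.06 in SFM arrays (-0.91, SE 0.11, adjusted p = 9.89e-08). These CHI3L1 values lie near the low end of the scale, and its other 2 probe sets did not pass the test (-0.24 and 0.02). The second CFB probe set fell by 0.27.

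In all 3 genes the SFM mean rose between 4 h and 24 h, while the IGF-I mean rose past the adjusted p in CFB alone. At 4 h their responses were 0.01 (CCL20), 0.12 (CFB) and 0.21 (CHI3L1), none past the adjusted p. Between 4 h and 24 h the IGF-I mean changed by 0.23 for CCL20, 0.76 for CFB and 0.07 for CHI3L1, and the SFM mean by 1.25, 1.62 and 1.18. At 24 h, CCL20 thus stood at 7.37 ± 0.21 in IGF-I arrays and 8.38 ± 0.11 in SFM arrays (SD, n = 3 each), and at 4 h at 7.14 in IGF-I arrays and 7.13 in SFM arrays. Of the 39 falls, 12 had a higher IGF-I mean at 24 h than at 4 h, and 28 had a higher SFM mean, which 44.1% of all probe sets had. The SFM comparison shares its 24 h arrays with the response itself, so these counts are a description.

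**Figure D2:**
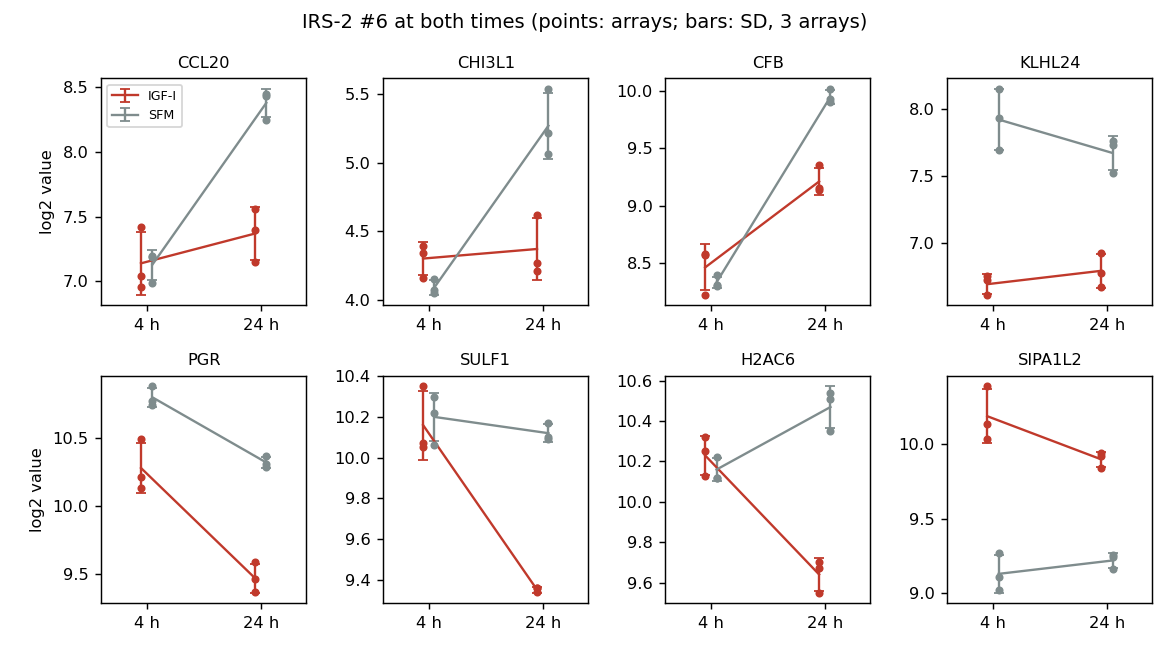
Log2 values of 8 genes in IRS-2 #6 at 4 h and 24 h, IGF-I in red and SFM in grey, with each array as a point and the SD over 3 arrays as bars. For CCL20, CHI3L1 and CFB the SFM line climbs between the times, for SULF1 the IGF-I line drops, and KLHL24 and SIPA1L2 are already apart at 4 h.

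SULF1, which removes 6-O-sulfates from heparan sulfate at the cell surface, had a different shape. Its probe set of highest signal read 9.36, 9.36 and 9.34 in IGF-I arrays and 10.09, 10.17 and 10.10 in SFM arrays, so the arrays of each group differed by less than 0.1. Its IGF-I mean changed by -0.80 between 4 h and 24 h and its SFM mean by -0.07. All 3 SULF1 probe sets were called (-0.77, -0.84 and -0.74), and the 24 h minus 4 h difference in response was -0.73, -0.61 and -0.54, each past the adjusted p. PGR read 9.46, 9.37 and 9.59 in IGF-I arrays and 10.29, 10.37 and 10.31 in SFM arrays (-0.85, SE 0.11, adjusted p = 2.79e-07). The response of PGR at 4 h was -0.52 (adjusted p = 0.00117), under 1.5-fold. A second PGR probe set was at -0.07 and did not pass the test. T47D-YA cells are known to carry an introduced gene for the A form of this receptor, and which transcript each probe set reads was not tested.

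KLHL24, a substrate adaptor of the cullin-3 ubiquitin ligase, was the one gene called lower at both times. Its probe set of largest change read 6.67, 6.77 and 6.92 in IGF-I arrays and 7.52, 7.76 and 7.73 in SFM arrays at 24 h (-0.88, SE 0.11, adjusted p = 1.74e-07), and was -1.23 at 4 h. Of its 5 probe sets, 4 fell at 24 h (-0.88, -0.70, -0.68 and -0.62), while the other was at -0.12 (adjusted p = 0.64). In the test of the difference between the times, none of these 4 passed (0.08 to 0.45). They are the 4 probe sets shared with the 13 called lower at 4 h (0.0238% of all). Of the other 9, the 3 that were still lower at 24 h past the adjusted p, named after their values were seen, were STON1 (-0.58), CREBRF (-0.44) and SOX2 (-0.31).

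H2AC6, a histone H2A gene of the large cluster on chromosome 6 (chr6:26124172-26124690), gave the smallest adjusted p among the calls. It read 9.55, 9.70 and 9.67 in IGF-I arrays and 10.54, 10.51 and 10.35 in SFM arrays (-0.83, SE 0.061, adjusted p = 2.03e-13). The probe set 206110_at, assigned to 10 H3 histone genes, fell by 0.61. Genes of this family are near-identical copies, and which of them each probe set reads is uncertain. Messages of these histone genes mostly lack a poly(A) tail, while H2AC6 and H2BC21 are known to give polyadenylated forms as well. Of 41 measured histone genes, 10 fell and 2 rose, with a median of -0.10 against 0.0017 over all 19775 genes, of which 4.34% fell and 1.42% rose. H2BC21 (-0.54), H2BC4 (-0.52), H2AC8 (-0.50) and H2BC5 (-0.38) fell, and the replacement variants H2AX (0.19) and H2AZ1 (0.15) rose.

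Other falls were in genes of metabolism, membranes and signaling. SLC2A13, a proton-coupled inositol transporter, read 5.75, 6.45 and 6.54 in IGF-I arrays and 7.0, 7.08 and 7.19 in SFM arrays (-0.84). Array A was well below the other IGF-I arrays, and the other 4 SLC2A13 probe sets did not pass the test (-0.35 to -0.11). ABAT, which encodes GABA transaminase, read 9.09, 9.17 and 9.32 in IGF-I arrays and 9.86, 9.93 and 9.77 in SFM arrays (-0.66), and all 3 ABAT probe sets fell. ELAPOR1, an estrogen-induced gene linked to autophagy, read 8.94, 8.96 and 9.20 in IGF-I arrays and 9.63, 9.85 and 9.73 in SFM arrays (-0.70), and its other probe sets fell by 0.52 and 0.41. The lipid phosphatase gene INPP4B, which acts on PI3 kinase products, fell by 0.61 on 1 of its 4 probe sets and by 0.30 on another. The homeobox gene CUX2 (-0.80), the ectonucleotidase gene ENPP3 (-0.68), the flippase gene ATP8A1 (-0.64), the cadherin gene CDH8 (-0.64 and -0.60), the kinase gene NEK5 (-0.66), the phosphatase gene PPM1L (-0.62), PDZRN3 (-0.59) and the noncoding RNAs LINC00993 (-0.63), TOLLIP-DT (-0.62) and MINCR (-0.60) completed the list with DIS3. DIS3, an exosome nuclease gene, fell on 1 of 5 probe sets (-0.60), and the others lay between -0.20 and 0.03. Several of these calls rest on single arrays. Without the IGF-I array A, the change was -0.56 for ATP8A1, -0.55 for PPM1L, -0.54 for MINCR, -0.49 for INPP4B and -0.48 for PDZRN3, and without the SFM array B it was -0.56, -0.56, -0.57, -0.54 and -0.56 for PPM1L, PDZRN3, MINCR, INPP4B and TOLLIP-DT. Without the SFM array A, NEK5 was at -0.58, the second CDH8 probe set at -0.54, DIS3 at -0.50 and LINC00993 at -0.48, and without the IGF-I array B DIS3 was at -0.47 and LINC00993 at -0.48, all under 1.5-fold. In LINC00993 alone the groups met, with 9.93 in the IGF-I array C and 9.93 in the SFM array C.

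The largest falls of all came from probe sets without a symbol. The probe set 234432_at read 5.33, 5.19 and 6.19 in IGF-I arrays and 6.55, 7.35 and 6.80 in SFM arrays (-1.33, SE 0.21). The probe set 1555623_at read 8.15, 8.25 and 8.37 in IGF-I arrays and 9.23, 9.66 and 9.55 in SFM arrays (-1.22, SE 0.13), and 234623_x_at fell by 1.19. All 3 were within 0.48 of SFM at 4 h without passing the test, and their SFM means at 24 h exceeded those at 4 h by 1.28, 0.72 and 1.02. The smallest adjusted p of any probe set belonged to a gene under 1.5-fold, PIP, which encodes prolactin-induced protein, a secreted protein of breast apocrine cells, and which is named here after its values were seen. It read 13.35, 13.38 and 13.33 in IGF-I arrays and 13.83, 13.82 and 13.82 in SFM arrays (-0.47, SE 0.028, adjusted p = 9.65e-17), and 13.36 in IGF-I arrays and 13.36 in SFM arrays on average at 4 h.

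**Figure D3:**
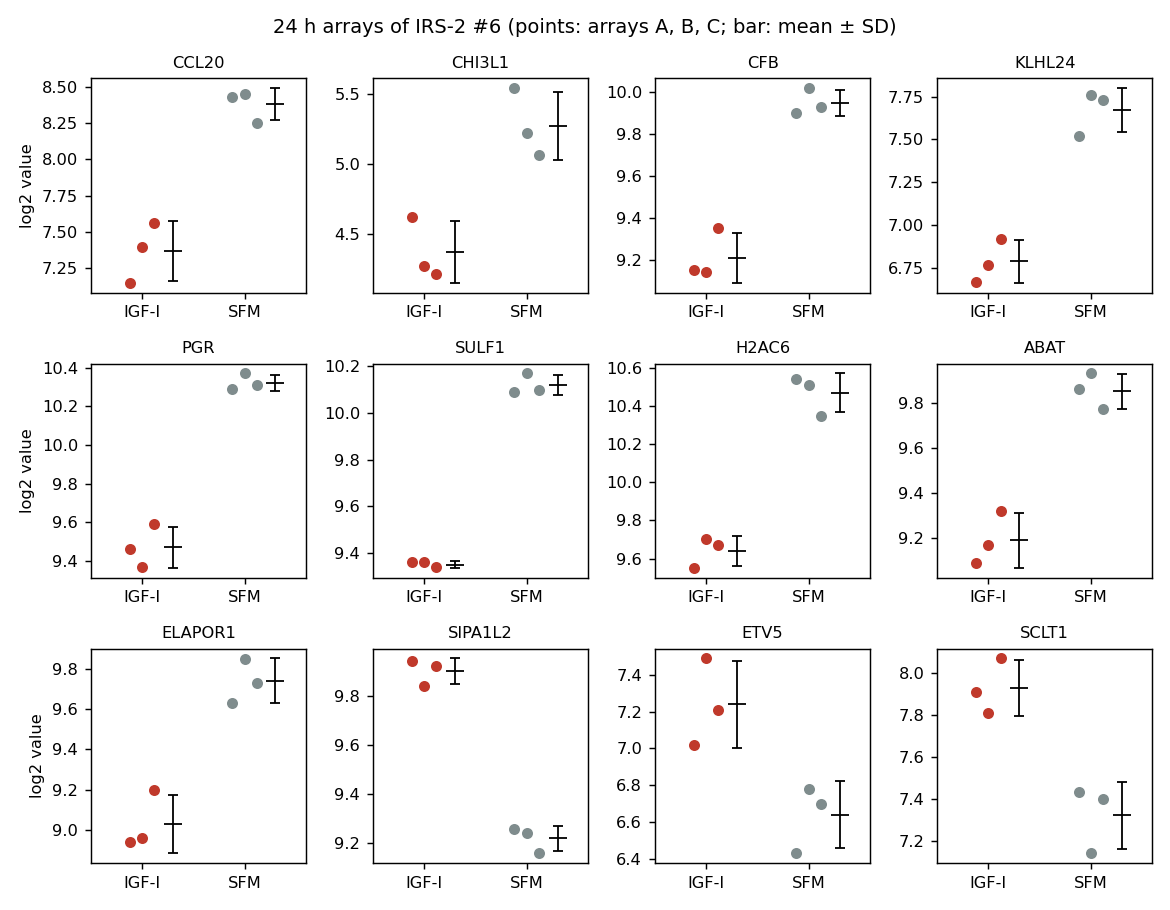
Log2 values of 12 called genes in the 24 h arrays of IRS-2 #6, IGF-I at left and SFM at right of each panel, with arrays A, B and C as points and the mean with its SD beside them. In all 12 panels the 3 IGF-I arrays do not overlap the 3 SFM arrays, and each panel has its own log2 axis.

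The rises were fewer and smaller. SIPA1L2, a Rap GTPase-activating protein gene, read 9.94, 9.84 and 9.92 in IGF-I arrays and 9.26, 9.24 and 9.16 in SFM arrays (0.68, SE 0.084, adjusted p = 2.88e-07). At 4 h its response was 1.06, and it was the only probe set called higher at both times. ETV5, an ETS factor induced by ERK signaling, read 7.02, 7.49 and 7.21 in IGF-I arrays and 6.43, 6.78 and 6.70 in SFM arrays (0.60), and a brighter ETV5 probe set was at 0.49. SCLT1, a gene of the centriole's distal appendages, read 7.91, 7.81 and 8.07 in IGF-I arrays and 7.43, 7.14 and 7.40 in SFM arrays (0.61), and it was at -0.01 at 4 h. Its other 2 probe sets were at 0.32, past the adjusted p, and -0.10. ETV5 was under 1.5-fold without the IGF-I array B (0.48) and without the SFM array A (0.50), and SCLT1 without the IGF-I array C (0.54) and without the SFM array B (0.52). The fourth probe set, assigned to DLEU2, DLEU2L and MIR15A together, rose by 0.61, and by 0.54 without the IGF-I array C. Among genes that rose without a call, LIN28B, a regulator of let-7 microRNAs, was at 0.50, the ERK phosphatase gene DUSP6 at 0.50 and the glutathione synthesis gene GCLM at 0.47.

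Genes of mitosis were higher as a group, by less than 1.5-fold each. Of 49 measured, 32 rose, against 1.42% of all genes, and none fell. All 49 had a log2 fold change above 0, as had 9998 of all 19775 genes, and in 47 the IGF-I arrays lay above the SFM arrays, as in 1931 of all genes. Their median was 0.24, and the range 0.10 to 0.43. The spindle gene HMMR read 11.41, 11.48 and 11.65 in IGF-I arrays and 11.06, 11.16 and 11.10 in SFM arrays (0.41, adjusted p = 4.68e-06), the abscission gene CEP55 read 11.17, 11.32 and 11.29 in IGF-I arrays and 10.81, 10.90 and 10.90 in SFM arrays (0.39), and the mitotic kinesin gene KIF14 was at 0.43 and the kinase gene PLK1 at 0.38. In RNA of a whole culture, more cells of a state and more RNA per cell cannot be told apart. The count was 43 after quantile normalization, 19 after median centring and 21 to 27 with any 1 of the 6 arrays left out, and all 49 stayed above 0 under both scalings. At 4 h the median was -0.10, with none of the 49 higher and 4 lower, against 373 and 312 of all 19775 genes. The difference between the times passed the test upward in 25 of the 49, against 79 of all genes. The median at 24 h was 0.38 in IRS-2 #1 and 0.50 and 0.38 in the IRS-1 clones #10 and #20, where 47, 47 and 45 of the 49 rose. Of all 19775 genes, 580, 869 and 1475 rose in these clones, in the same order.

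Genes of DNA replication moved less. Of 46 measured, 7 rose and none fell (median 0.083), among them MCM10 (0.28) and the ribonucleotide reductase gene RRM2, which read 13.06 in each IGF-I array and 12.84, 12.82 and 12.83 in SFM arrays (0.23). That count was 17 after quantile normalization, 2 after median centring and 3 to 6 with 1 array left out. Tubulin and microtubule genes rose in 9 of 40 and fell in none, with TUBB2A at 0.45, TUBA4A at 0.30 and TUBB4B at 0.22 (6 after median centring, and 5 to 9 with 1 array left out, the 5 without the IGF-I array A, the SFM array A or the SFM array B). In the list of G1 cyclins, CDKs and their inhibitors, 4 of 31 rose, with CCND1 at 0.29 and CDKN1A at 0.21, and 4 fell, with CDKN1C at -0.40 and MYC at -0.28. CCND1, the gene of cyclin D1, read 9.96, 9.95 and 9.93 in IGF-I arrays and 9.61, 9.58 and 9.77 in SFM arrays. The 4 rises of this list were 9 after quantile normalization and 1 after median centring. With 1 array left out, 0 to 3 rose, the 0 without the SFM array A, and 2 to 3 fell. Over all genes, the same 2 scalings turned the 281 higher and 858 lower genes (24.7% of them higher) into 550 and 869 (38.8%) and into 118 and 716 (14.1%). With 1 array left out, at most 239 genes were higher, with 139 without the IGF-I array B, 134 without the SFM array A and fewest without the IGF-I array C, and 383 to 776 were lower, the fewest without the SFM array B.

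FOXO targets and feedback genes of PI3 kinase were lower where they changed. Of 30 measured, 8 fell, against 4.34% of all genes, and none rose (median -0.12). The receptor gene ERBB3, whose transcription FOXO factors are known to drive, read 12.52, 12.52 and 12.61 in IGF-I arrays and 12.89, 12.92 and 12.89 in SFM arrays (-0.35, adjusted p = 1.11e-07). YPEL2 (-0.56), CITED2 (-0.33), the atrophy ligase gene FBXO32 (-0.33), PIK3IP1 (-0.30), CCNG2 (-0.29), BCL6 (-0.25) and TXNIP (-0.16) made up the rest. With 1 array left out 5 to 8 fell, the 5 without the SFM array B. Of 42 genes of autophagy and the lysosome 9 fell (5 to 7 with 1 array left out, the 5 without the IGF-I array A or the SFM array B), against the same 4.34%, and none rose. The largest change was that of TP53INP1, which read 10.04, 10.07 and 10.15 in IGF-I arrays and 10.64, 10.66 and 10.63 in SFM arrays (-0.56, adjusted p = 1.38e-09), with WIPI2 (-0.23), CTSA (-0.19) and MAP1LC3B (-0.18) well under it. TP53INP1 is also on the list of p53 targets, where 3 of 26 fell and 3 rose.

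Of 31 genes of estrogen and progesterone response and luminal identity, 8 fell, against 4.34% of all genes, and none rose (median -0.11). The trefoil factor gene TFF3 read 10.18, 10.14 and 10.22 in IGF-I arrays and 10.66, 10.64 and 10.47 in SFM arrays (-0.41), the prolactin receptor gene PRLR was at -0.25, and the estrogen receptor gene ESR1 read 10.31, 10.35 and 10.35 in IGF-I arrays and 10.59, 10.58 and 10.51 in SFM arrays (-0.22, adjusted p = 0.0174). With 1 array left out, 4 to 7 of these genes fell, and 4 without the IGF-I array A, the SFM array A or the SFM array B. TFF3 and ESR1 are also the 2 luminal markers that changed, out of 10. In the TGF-beta list 5 of 40 genes fell, with the target genes PMEPA1 (-0.49) and BAMBI (-0.38), and ID3 (0.32) rose. With 1 array left out the 5 were 2 to 5. Of the genes of the IGF pathway itself, GRB10 (-0.29), an adaptor that dampens insulin and IGF receptor signaling, and TSC1 (-0.21) fell among 42, and none rose, a share of 4.76% that is close to the 4.34% of all genes. With any array but the SFM array C left out, and after median centring, 1 of them fell. Lists of interferon response (2 of 46 higher, 1 lower), ribosome biogenesis (2 of 43 higher), glycolysis and hypoxia (1 of 38 in each direction), focal adhesion (1 of 40 lower) and cholesterol synthesis (1 of 26 lower) changed in few members.

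**Figure D4:**
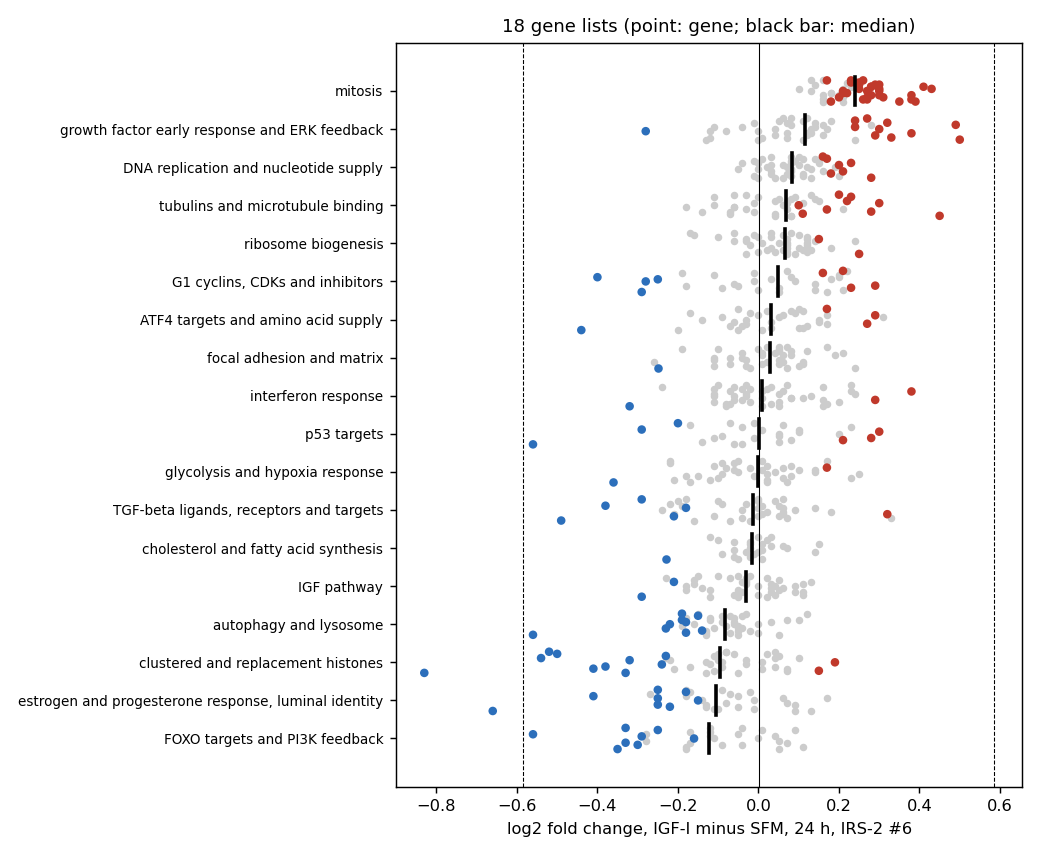
Log2 fold change of IGF-I over SFM at 24 h in IRS-2 #6 on the x axis for the genes of 18 lists, with 1 point per gene, red where it rose and blue where it fell past the adjusted p, grey otherwise, a black bar at each median and dashed lines at 1.5-fold. The mitosis list lies at the top with its 49 genes right of 0, and the FOXO list at the bottom with a median of -0.12.

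Most of the rises called at 4 h did not pass the adjusted p at 24 h. Of the 109 probe sets called higher at 4 h in IRS-2 #6, 22 were still higher at 24 h past the adjusted p and 3 were lower, with a median of 0.09, against 0.74 at 4 h. Of all 54613 probe sets, 530 were higher and 1568 lower at 24 h past the adjusted p. The 109 were chosen by their 4 h values, so the 4 h median is raised by the selection. The gene TGFB2, which encodes a TGF-beta ligand, was the extreme. Its probe set of largest response read 4.26, 4.43 and 4.45 in IGF-I arrays and 4.89, 4.83 and 4.70 in SFM arrays at 24 h (-0.43, adjusted p = 0.0251), and 7.88, 7.47 and 7.47 in IGF-I arrays and 4.52, 4.70 and 4.62 in SFM arrays at 4 h (2.99). The difference in response, 24 h minus 4 h, was -3.42 on the log2 scale (SE 0.17, adjusted p = 3.19e-20). The other 4 TGFB2 probe sets lay between -0.18 and -0.03 at 24 h, without passing the test. GBP1, an interferon-inducible GTPase gene, read 9.08, 9.20 and 9.37 in IGF-I arrays and 8.70, 8.94 and 8.88 in SFM arrays at 24 h (0.38, adjusted p = 0.00879), with a difference of -1.95 from its 4 h response. Of 45 genes of the growth factor early response, 10 were still higher at 24 h and 1 lower (median 0.12), against 32 higher at 4 h (median 0.41), and the difference between the times was downward in 19 and upward in none. With 1 array left out the 10 were 4 to 9, and after median centring 6. Of all 19775 genes, 281 were higher and 858 lower at 24 h, and 373 were higher at 4 h. The difference between the times was downward in 232 of all genes and upward in 79.

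In the test of the difference itself, 125 probe sets had a lower response at 24 h than at 4 h (0.229%) and 6 a higher one (0.011%). Of the 125, 69 had been called higher at 4 h, as 109 of all 54613 probe sets were, and 15 were among the 39 falls at 24 h. The difference uses the arrays of both responses, so these overlaps follow in part from the selection. These 15 include CCL20 (-1.02), CHI3L1 (-1.11), CFB (-0.86), H2AC6 (-0.91), ENPP3 (-0.79), ABAT (-0.61) and 2 of the SULF1 probe sets. The 6 with a higher response were FOXN1 (0.67), SCLT1 (0.62), 244424_at (0.61), the inhibitor of differentiation gene ID2 (0.61), the spindle checkpoint kinase gene TTK (0.61) and the mitotic gene DEPDC1 (0.60). FOXN1 and ID2 were lower at 4 h (-0.65 and -0.63) and at 0.02 and -0.02 at 24 h. TTK read 10.41, 10.52 and 10.61 in IGF-I arrays and 10.25, 10.16 and 10.22 in SFM arrays at 24 h (0.30), and its response was -0.31 at 4 h. Of the genes whose mRNA the study followed, CDKN2B, TNFRSF12A, ADM, MYBL2, SLC7A11, TGFB1 and IRS1 were within 0.26 of SFM at 24 h on every probe set and none passed the test, among them MYBL2 at 0.19 (adjusted p = 0.051).

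The falls were set against the other clones, whose arrays are separate. In IRS-2 #1 all 39 were below 0 at 24 h, with a median of -0.46, 27 were lower past the adjusted p (1.15% of all probe sets were) and 5 were called (0.022%). In IRS-1 #10, 35 were below 0 (median -0.49), 24 were lower past the adjusted p (5.03%) and 16 were called (0.126%). In IRS-1 #20, 34 were below 0 (median -0.28), 18 were lower past the adjusted p (2.28%) and 11 were called (0.0641%). At 4 h in IRS-2 #6 itself, 28 were below 0 (median -0.14), 10 were lower past the adjusted p (0.989%) and 4, all of KLHL24, were called. The 4 rises were also above 0 at 24 h in the other clones, with SIPA1L2 at 0.57 in IRS-2 #1 and 0.44 and 0.38 in the IRS-1 clones #10 and #20, and the DLEU2 probe set at 0.65, 0.78 and 0.68 in the same order of clones.

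**Figure D5:**
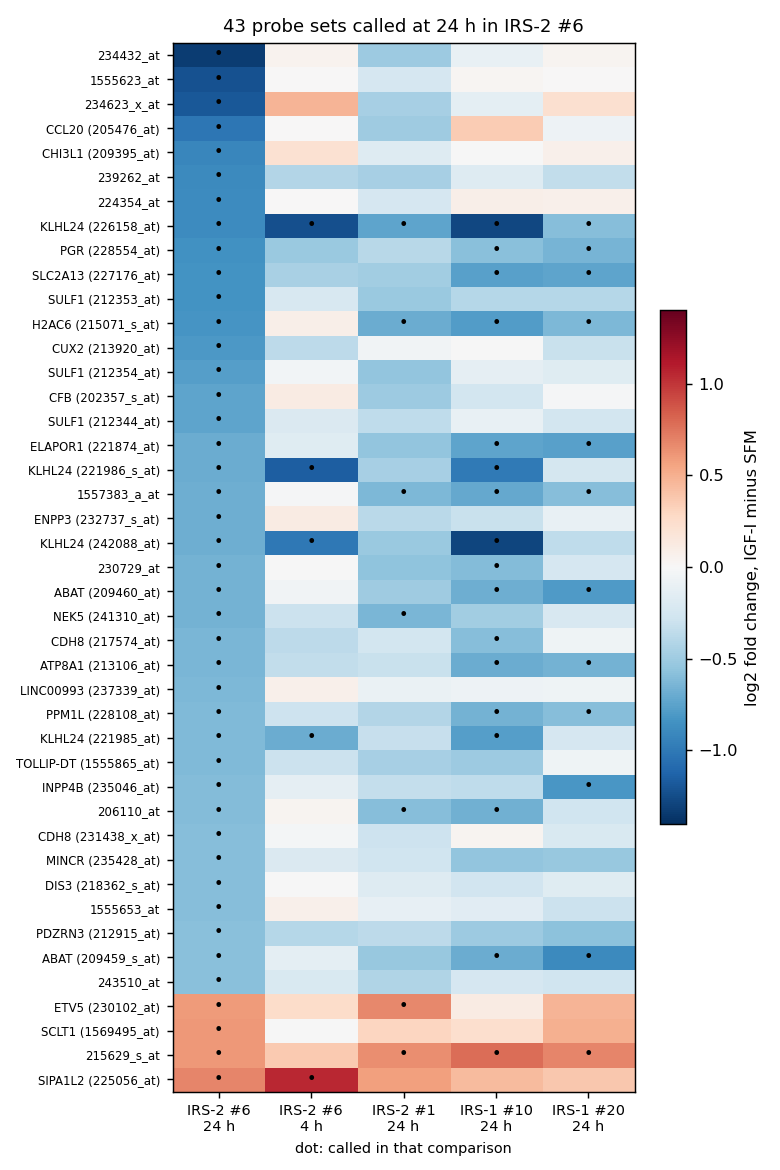
Log2 fold change of IGF-I over SFM (colour, blue lower and red higher) of the 43 probe sets called at 24 h in IRS-2 #6, in rows, for IRS-2 #6 at 24 h and 4 h and the other 3 clones at 24 h, in columns, with a dot where the probe set was called. KLHL24, PGR, SLC2A13, H2AC6, ELAPOR1 and ABAT are blue in all 4 clones, while CCL20, CHI3L1, 234432_at, 1555623_at and 234623_x_at are pale in the IRS-1 columns. Of these, only CCL20 (-0.50) passed the adjusted p in IRS-2 #1, where CHI3L1 was at -0.18, 1555623_at at -0.23, 234432_at at -0.51 and 234623_x_at at -0.46.

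No response differed between IRS-2 #6 and IRS-2 #1 by the rule for a call (0.0% of 54613), where 39 did at an unadjusted p under 0.05 and the same fold. At the adjusted p alone 1 probe set passed, that of PIP, with a response of -0.47 in IRS-2 #6 and -0.14 in IRS-2 #1 (difference -0.33, 95% interval -0.41 to -0.25, adjusted p = 3.37e-06). The difference was below 0 in all 39 falls called in IRS-2 #6 (median -0.30). These falls were chosen by their values in IRS-2 #6, so this follows in part from the selection. Among them 1555623_at differed most (-0.99, 95% interval -1.36 to -0.62, adjusted p = 0.0598), and CUX2 differed by -0.76 (adjusted p = 0.173). For CCL20 the difference was -0.51 (95% interval -0.88 to -0.14, adjusted p = 0.715), with a response of -0.50 in IRS-2 #1, and for CHI3L1 it was -0.72 (-1.02 to -0.42, adjusted p = 0.173), with -0.18 in IRS-2 #1. For H2AC6 the interval was -0.31 to 0.03 and for the KLHL24 probe set of largest change -0.44 to 0.16. Another called KLHL24 probe set differed by -0.29 (-0.49 to -0.10, adjusted p = 0.715).

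Against the mean of the IRS-1 clones, 42 probe sets had a lower response in IRS-2 #6 (0.0769%) and 1 a higher one (0.00183%), the adhesion gene ALCAM (0.64). In 28 of the 42 the probe set was called higher at 24 h in IRS-1 #20, and only 12 of these were also called higher in IRS-1 #10. Of all 54613 probe sets, 102 were called higher in #20 and 68 in #10. The difference uses the arrays of IRS-2 #6 and of both IRS-1 clones. Overlaps of the 42 with calls in these clones thus follow in part from the selection. For the cystine transporter gene SLC7A11, called in both, IRS-2 #6 was at 0.04, and the clones #10 and #20 of IRS-1 at 1.53 and 2.69 (difference -2.07, SE 0.12, adjusted p = 8.39e-17). INHBE (-1.88), asparagine synthetase ASNS (-1.41) and GDF15 (-1.4) were among these 28. Of 35 targets of ATF4, the transcription factor of the amino acid response, 26 had a lower response in IRS-2 #6 and none a higher one. Past the same adjusted p, 107 of all 19775 genes had a lower response and 4 a higher one. The median of the 35 was 0.03 in IRS-2 #6, 0.06 in IRS-2 #1, and 0.37 and 0.67 in the IRS-1 clones #10 and #20. SLC7A5 (0.29) and PSAT1 (0.27) rose in IRS-2 #6 too, and the stress gene NUPR1 fell (-0.44), reading 10.52, 10.59 and 10.62 in IGF-I arrays and 11.06, 11.02 and 10.98 in SFM arrays. At 4 h in IRS-2 #6, 12 of the 35 ATF4 targets rose and 0 fell (median 0.11). Of all 19775 genes, 373 rose and 312 fell at that time.

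Another 10 of the 42 were falls called in IRS-2 #6, and the other 4 were RAB39B, NUPR1, CXCL10 and CSF2RA, called in neither IRS-2 #6 nor the IRS-1 clones. CCL20 differed by -1.15 (SE 0.16, adjusted p = 5.77e-06), with responses of 0.36 in clone #10 and -0.07 in clone #20 of IRS-1, CHI3L1 by -0.94, CUX2 by -0.64, CFB by -0.60 and a SULF1 probe set by -0.62. The probe sets without a symbol 234432_at (-1.30), 1555623_at (-1.24), 234623_x_at (-1.23), 224354_at (-0.96) and 239262_at (-0.63) made up the 10. In IRS-2 #1, the same probe sets of CCL20 (-0.50), CFB (-0.51) and SULF1 (-0.55), and 239262_at (-0.46), fell past the adjusted p. CHI3L1 (-0.18), CUX2 (-0.05), 234432_at (-0.51), 1555623_at (-0.23), 234623_x_at (-0.46) and 224354_at (-0.24) did not pass it in that clone. For KLHL24, PGR, SLC2A13, H2AC6, ELAPOR1 and ABAT the difference from the IRS-1 mean was between -0.23 and 0.21 on their called probe sets and did not pass the test. This comparison is with 2 other clones, and the spread between clones is not part of its error.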

How the data were processed

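RNA of 48 samples was hybridised to Affymetrix GeneChip arrays, 3 for each of 16 groups of clone, treatment and time. According to the methods, the authors ran GC-RMA (GeneData Refiner) on the scans, and the deposited series matrix holds the resulting log2 values, which were used as given (0 columns unused). GC-RMA sets values on a common scale and shrinks dim probe sets, so changes of dim genes are understated. The number of arrays limits the precision. The 62 control probe sets were left out. Symbols came from GEO's platform annotation (41097 probe sets with 1 symbol, 1801 with several, 11777 with none), 41043 were matched to RefSeq by Entrez ID and 0 changed. For lists, a gene is its probe set of highest mean (19775 genes).

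Group means over all 48 arrays were fitted with limma 3.58.1 (lmFit and eBayes with an intensity trend, R 4.3.3; 32 residual degrees of freedom), and p-values were Benjamini-Hochberg adjusted over 54613 probe sets. Contrasts were the 24 h response, its difference from the 4 h response, and its differences from IRS-2 #1 and from the mean of the IRS-1 clones. The fit was tested on simulated data. Alternatives changed the scaling, dim-probe filter, arrays fitted, variance trend, thresholds, adjustment, gene summary, replicate block and arrays left out. The members and the 18 gene lists were chosen with earlier results of these data known. Named genes are every called probe set, per list the called members and up to 3 of smallest adjusted p, the genes the study followed, up to 6 called differences in each direction, and the 5 highest and lowest genes. Other list members in the text were chosen after their values were seen. Figures were drawn with Python 3.11.15.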

Additional observations from a re-analysis of the deposited data

Results flagged for a closer look

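When the difference was tested, the response at 24 h departed from that at 4 h in 131 probe sets of IRS-2 #6, and the 24 h response of IRS-2 #6 departed in 43 from the mean of IRS-1 #10 and #20. The largest differences of 24 h minus 4 h were -3.42, -2.02 and -2.02 for 3 TGFB2 probe sets (209909_s_at, 228121_at and 209908_s_at) and -1.95, -1.87 and -1.79 for 3 GBP1 probe sets (202270_at, 231577_s_at and 202269_x_at). In the other direction they were 0.67 for FOXN1, 0.62 for SCLT1, 0.61 for each of 244424_at, ID2 and TTK, and 0.60 for DEPDC1.

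Between IRS-2 #6 and the IRS-1 mean, the differences were -2.07 and -1.67 for SLC7A11 (209921_at and 217678_at), -1.88 for INHBE, -1.41 for ASNS, -1.4 for GDF15, -1.30 for 234432_at and 0.64 for ALCAM. The 234432_at difference belongs to a fall in IRS-2 #6, whereas SLC7A11, INHBE, ASNS and GDF15 were within 0.26 of SFM in IRS-2 #6 at 24 h and did not pass the test there. At 4 h in IRS-2 #6 they had risen, by 1.02 and 0.94 for SLC7A11, 0.57 for INHBE, 0.30 for ASNS and 0.63 for GDF15. At 24 h, ALCAM was at 0.21 in IRS-2 #6, -0.56 in IRS-1 #10 and -0.28 in clone #20. In GDF15 and INHBE the IRS-1 clones themselves lay far apart, with 0.45 in #10 and 2.46 in #20 for GDF15, and 0.67 in #10 and 3.39 in #20 for INHBE.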

How the results depend on the processing

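The 43 calls (4 higher, 39 lower) were 33 after quantile normalization (32 shared), 47 after median centring (42 shared) and 34 with Bonferroni adjustment. They were 4 at 2-fold (0 higher, 4 lower), 2098 with no fold threshold (530 higher, 1568 lower), and 6 when probe sets were averaged per gene (0 higher, 6 lower). By the methods' t-test 42 passed unadjusted and 0 after Benjamini-Hochberg adjustment (0 higher, 0 lower). The calls numbered 37 to 62 with 1 array left out (2 to 9 higher, 28 to 60 lower). Chosen after seeing the data, leaving out both arrays lettered C gave 97 calls (2 higher, 95 lower, 39 shared) and both lettered A 35 (9 higher). The cause was not tested. None of the 43 called changes reversed its sign in the limma fits run on them.

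The 131 differences between 24 h and 4 h (6 higher, 125 lower) were 24 at 2-fold (0 higher, 24 lower), 533 with no fold threshold (121 higher, 412 lower), 39 with gene means (1 higher, 38 lower) and 105 to 171 with 1 array left out (5 to 13 higher, 97 to 163 lower). Bonferroni adjustment left 3 higher, and leaving out both arrays lettered A gave 12 higher. The 43 differences from the IRS-1 mean (1 higher, 42 lower) were 11 at 2-fold (0 higher, 11 lower), 174 with no fold threshold (9 higher, 165 lower), 19 with gene means (0 higher, 19 lower) and 35 to 54 with 1 array left out (0 to 5 higher). Bonferroni adjustment left 0 higher, and leaving out both arrays lettered B or C gave 2 and 4 higher. The difference between the IRS-2 clones, with 0 calls, had 2 when only its groups were fitted, 1 without a variance trend, 1 with no fold threshold, 0 to 2 with 1 array left out and 1 without both arrays lettered A.

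With the array letter as a replicate block, the response had 43 calls, the same 43 probe sets, and the difference between the IRS-2 clones had 2. Arrays of 1 letter did not deviate together, with correlations from -0.364 to 0.0743 at 24 h in IRS-2 #6 and 0 of 3 IGF-I arrays closest to its own letter, so the letters were not taken as pairs. Of the 43 calls, 20 were kept at 1.5-fold in every limma fit of single probe sets, that is, apart from the gene mean, the 2-fold threshold and the methods' t-test, which were not followed for single probe sets here. Without the IGF-I array A 11 were lost, without the SFM array B 9, without the SFM array A 8, without the IGF-I array B 4, and without the IGF-I array C or the SFM array C 3 each. Probe sets of values near 4, such as those of CHI3L1 and TGFB2, lie close to the lower end of the scale.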
